A study of Cavia porcellus with 11 samples.

Results

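The Slc30a genes encode the ZnT transporters, and the 9 members described here were the rows of the deposited table whose gene symbol was Slc30a1 to Slc30a7, Slc30a9 or Slc30a10, of 21481 genes in all. The family was chosen by the values of Slc30a2 in cisplatin cochleae against untreated ones, so those values are given as a description with no test. RNA-seq had been made from guinea pig (Cavia porcellus) cochleae in 3 groups: 3 libraries after cisplatin plus STB, 4 libraries after cisplatin, an ototoxic platinum chemotherapy, and 4 libraries without treatment. The series title names Schisantherin B, and the labels write the second agent as STB. No group received STB alone. The sources used here give neither strain, age, sex, dose and time after treatment nor how many animals a library holds. They do not state separate animals for the libraries of a group, and p-values cover the spread among libraries alone, which may be technical.

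ZnT proteins carry zinc out of the cytosol, either across the plasma membrane or into vesicles, the Golgi apparatus and other organelles. ZIP proteins, encoded by the Slc39a genes, carry it the other way, and metallothioneins bind it in the cytosol. In mouse, the zinc-sensing transcription factor MTF1 induces metallothionein genes and Slc30a1 when cytosolic zinc is high. Loss of Slc30a4 in lethal milk mice gives zinc-poor milk and otolith defects of the inner ear.

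Total counts per library were 15183801 to 17967896 after cisplatin plus STB, 15987935 to 17250430 after cisplatin and 14338894 to 18508296 without treatment. CPM, the counts scaled to library size with TMM factors, was used to compare libraries. FPKM, which also divides by exonic length, was used to compare genes. Differences came from a single edgeR quasi-likelihood fit of 15384 genes, with p-values adjusted over all of them by the Benjamini-Hochberg method and 0.05 as the threshold. A filter on low counts was passed by 8 of the 9 members, all but Slc30a3. No marker of hair cells, neurons, Schwann cells, the stria, the spiral ligament or supporting cells in the table was at 0 in every library.

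Length-normalised levels placed Slc30a9 and Slc30a1 at the top of the family. Slc30a9, which carries zinc out of mitochondria in human cells, averaged 22.48 FPKM over the 11 libraries (17.38 to 27.02), and Slc30a1, the plasma membrane exporter, averaged 18.84 FPKM (13.81 to 28.48). Their ranges overlapped, with Slc30a9 the higher in 9 of 11 libraries. Slc30a4, a transporter of the trans-Golgi and secretory vesicles, followed at 9.20 FPKM (7.68 to 13.06). It was not separated from Slc30a5, which averaged 8.10 FPKM (6.35 to 10.42) and lay below Slc30a4 in 7 of 11 libraries. Slc30a5 and Slc30a6 encode the partners of a heterodimer of the early secretory route, and Slc30a6 averaged 7.001 FPKM (5.77 to 8.04). The ranges of these partners overlapped too, with Slc30a5 the higher in 9 of 11 libraries.

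Slc30a7, whose product works as a homodimer in the same route, averaged 4.60 FPKM (3.59 to 6.15) and lay below Slc30a6 in all 11 libraries. Slc30a2, a transporter of secretory vesicles and lysosomes known from mammary gland and pancreatic acinar cells, averaged 3.27 FPKM (1.79 to 5.53), close to the middle of the table, since 50.7% of all genes had a lower mean. It was below Slc30a7 in 10 of 11 libraries. Slc30a10, which in human and mouse exports mainly manganese, averaged 0.255 FPKM (0.09 to 0.44). Slc30a3, which loads zinc into synaptic vesicles of glutamatergic neurons in mouse brain, averaged 0.0736 FPKM and never exceeded 0.14 FPKM.

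**Figure D1:**
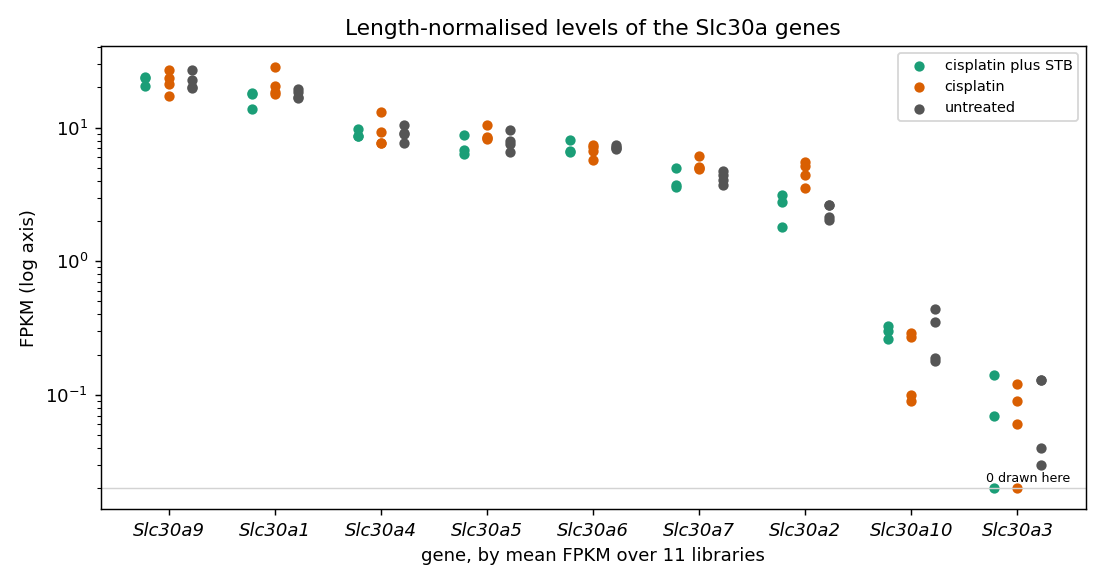
FPKM on a log axis for each of the 9 Slc30a genes, ordered by the mean over 11 libraries, with 1 point per library and colours for the groups (a value of 0 is drawn at the grey line). Slc30a9 and Slc30a1 lie highest, 5 genes lie between 1.79 and 13.06 FPKM, and Slc30a10 and Slc30a3 stay at or below 0.44 FPKM.

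Cisplatin was first compared with no treatment, the contrast that asks which transcripts differ after the ototoxic drug. Slc30a2, at positions 19661653 to 19670786 (minus strand, as the deposited table numbers its scaffold), had 13.9, 22.8, 17.9 and 21.35 CPM in the cisplatin libraries, against 10.3, 7.81, 10.1 and 8.58 CPM in the untreated libraries. All 4 cisplatin libraries lay above all 4 untreated ones, with cisplatin replicate 1 nearest to them. The means were 18.99 ± 3.99 CPM after cisplatin and 9.21 ± 1.22 CPM without treatment (SD, n = 4 each), and the fitted log2 fold change was 1.04 (SE 0.22), a fold of 2.06. It stayed between 0.95 and 1.17 when any 1 of the 11 libraries was left out. These are the values that brought the family to notice, so nothing is read from their size. In bulk tissue, more cells that express a gene and more RNA per cell cannot be told apart.

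Slc30a2 lies wholly inside the span of Extl1, a glycosyltransferase gene of heparan sulfate synthesis on the opposite strand, at positions 19646661 to 19673054, and the overlap covers all 9134 bases of Slc30a2. The sources do not say whether reads were counted by strand, and without strand the reads of this pair cannot be told apart. Extl1 had 137, 165, 102 and 106 CPM in the cisplatin libraries, against 121, 114, 118 and 150 CPM in the untreated libraries. The groups overlapped and the log2 fold change of Extl1 was 0.02 (SE 0.19, edgeR adjusted p = 0.985). There were 10.2 to 20.2 Slc30a2 counts per 100 Extl1 counts after cisplatin and 5.72 to 8.61 without treatment. This ratio has the Slc30a2 counts in it and is a description like them. Trim63, the nearest gene that does not overlap Slc30a2, stood at -0.09 (SE 0.32, edgeR adjusted p = 0.938). The other 8 members overlapped no gene, with the closest neighbours Extl2 at 85 bases from Slc30a7 and Nlrc4 at 510 bases from Slc30a6.

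**Figure D2:**
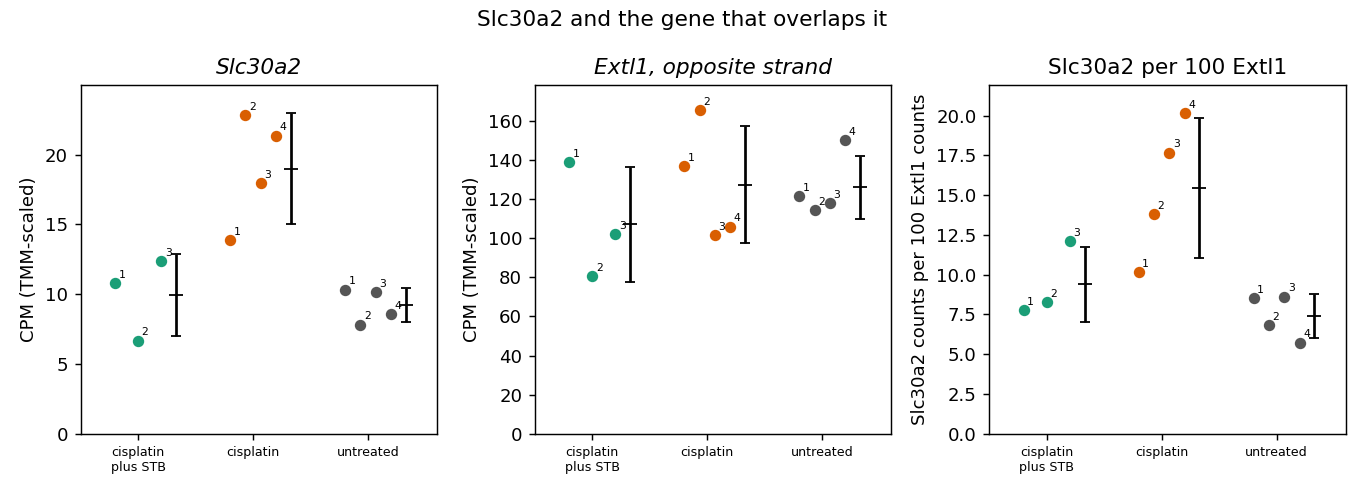
CPM of Slc30a2 (left), CPM of the overlapping gene Extl1 (middle) and Slc30a2 counts per 100 Extl1 counts (right), 1 numbered point per library and replicate, with mean ± SD bars. The 4 cisplatin libraries lie above the untreated ones for Slc30a2 and for the ratio (10.2 to 20.2 against 5.72 to 8.61), while the groups overlap for Extl1.

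Among the other members, Slc30a7 came nearest to the same pattern. It had 36.0, 39.1, 37.5 and 47.2 CPM in the cisplatin libraries, against 27.0, 31.5, 29.2 and 35.25 CPM in the untreated libraries. The groups did not overlap, though the lowest cisplatin library and the highest untreated one were less than 1 CPM apart. This log2 fold change of 0.38 (SE 0.15) did not pass (edgeR adjusted p = 0.488). Libraries of the cisplatin group all lay above the untreated ones for 2.8% of all genes, and for 1 of the 7 tested members other than Slc30a2.

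Slc30a1, at the plasma membrane, had 105, 106, 120 and 170 CPM in the cisplatin libraries, against 104, 92.6, 93.4 and 112 CPM in the untreated libraries. The groups overlapped and cisplatin replicate 4 stood above the rest. A log2 fold change of 0.32 was fitted (SE 0.17, edgeR adjusted p = 0.547), and of 0.14 without cisplatin replicate 4. Slc30a5, the larger partner of the secretory heterodimer, was measured at 92.6, 99.4, 97.6 and 123 CPM in cisplatin libraries, against 72.9, 87.4, 82.6 and 109 CPM in untreated ones. Here too the groups overlapped, each with its replicate 4 on top (log2 fold change 0.23, SE 0.16, edgeR adjusted p = 0.633). Without cisplatin replicate 4 this value was 0.14, and without untreated replicate 4 it was 0.35.

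Slc30a6, the partner of Slc30a5, had the smallest spread between replicates of the tested members. Its CPM was 35.1, 28.65, 32.3 and 35.6 in the cisplatin libraries, against 33.1, 34.0, 33.2 and 33.2 in the untreated libraries, where the SD was 0.397 CPM. Its log2 fold change of -0.02 had an SE of 0.12 and a 95% interval from -0.28 to 0.24 (edgeR adjusted p = 0.962). Without cisplatin replicate 2 it was 0.05.

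Slc30a9 had 70.4, 60.3, 80.3 and 93.8 CPM in cisplatin libraries, against 66.2, 86.5, 63.8 and 75.8 CPM in untreated ones. The groups overlapped over most of their range (log2 fold change 0.06, SE 0.15, edgeR adjusted p = 0.901), and the sign turned without cisplatin replicate 4 (-0.05). Slc30a4 had 20.2, 29.9, 17.3 and 17.6 CPM after cisplatin, against 22.6, 19.2, 19.1 and 17.0 CPM without treatment. A single library, cisplatin replicate 2, lay above the rest, and its removal turned the fitted 0.13 (log2, SE 0.18, edgeR adjusted p = 0.819) to -0.08.

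Slc30a10 was counted 28, 9, 32 and 11 times in the cisplatin libraries, against 17, 44, 19 and 42 times in the untreated libraries. Both groups split into low and high libraries. A log2 fold change of -0.60 was fitted (SE 0.45, 95% interval -1.58 to 0.38, edgeR adjusted p = 0.669). It ran from -0.89 without cisplatin replicate 3 to -0.36 without untreated replicate 2 (-0.37 without cisplatin replicate 2 and -0.40 without cisplatin replicate 4), and limma-voom gave -0.21. Slc30a3 was counted 0, 2, 3 and 4 times after cisplatin, against 1, 4, 4 and 1 times without treatment. It was not tested, and the count of 0 in cisplatin replicate 1 allows up to 0.188 CPM by counting error alone.

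In this comparison 0 of the 7 tested members other than Slc30a2 passed, as did 0% of all genes by edgeR, while DESeq2 called 33 genes and limma-voom 3. At an unadjusted p under 0.05 there was 1 of these 7 (Slc30a7), against 9.71% of all genes in either direction (1494). Of the 7, 5 had a log2 fold change above 0 and 2 below, with a median of 0.13, while 49.1% of all genes were above 0 and the median over all genes was -0.01.

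**Figure D3:**
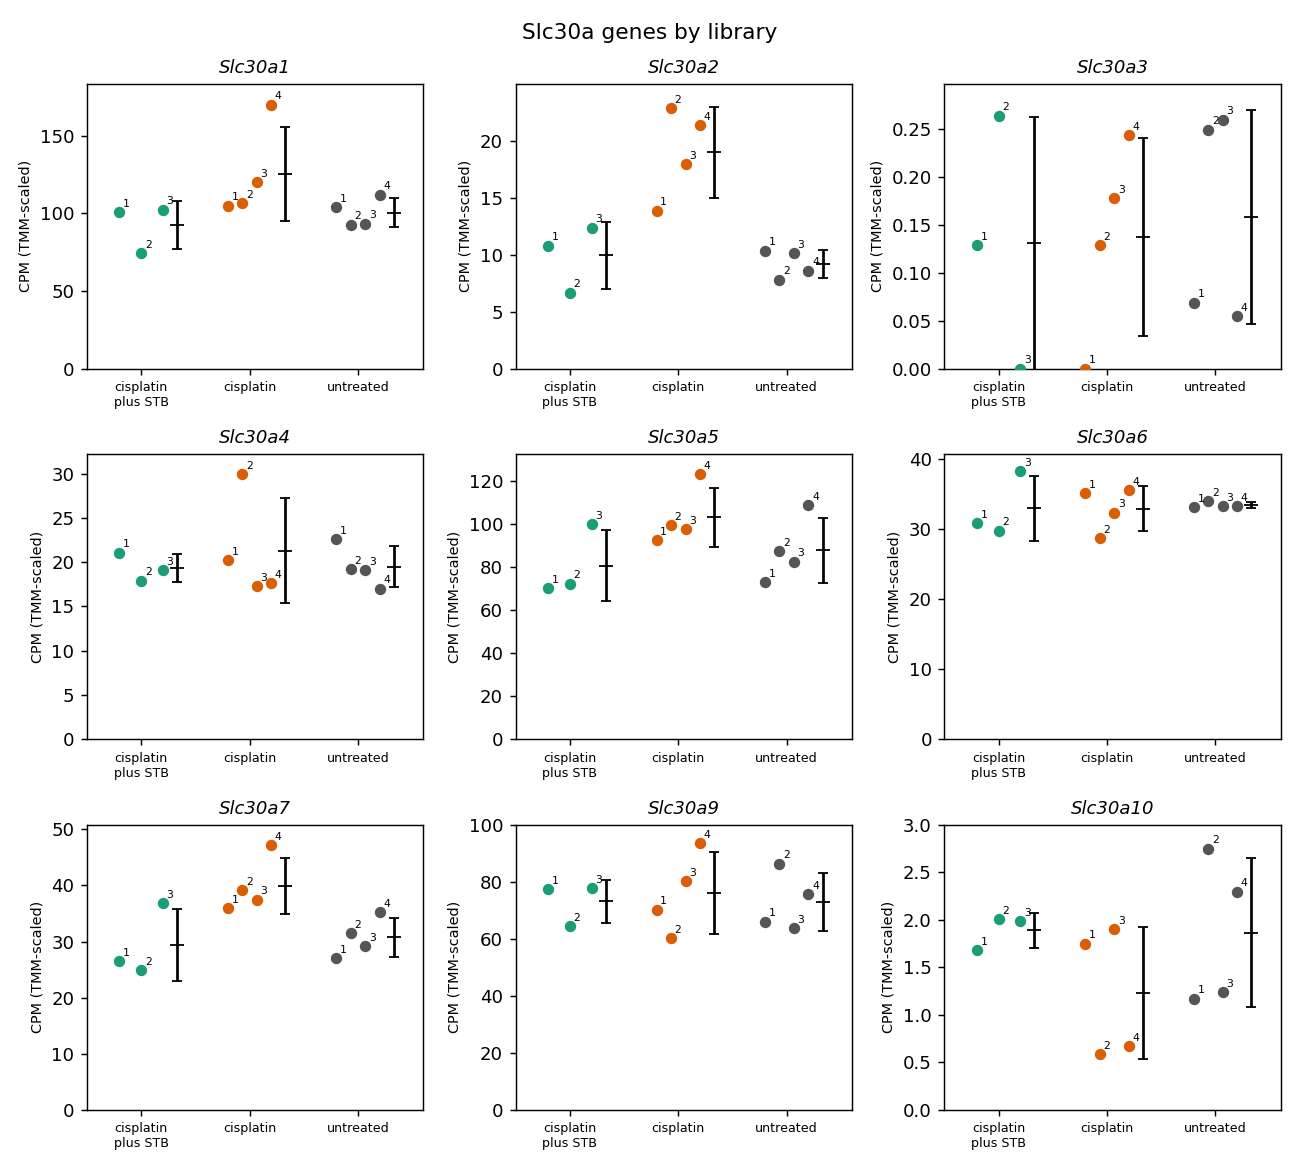
TMM-scaled CPM of each Slc30a gene by library, 1 numbered point per replicate, with mean ± SD bars beside each group (n = 3 after cisplatin plus STB, n = 4 in the other groups; bars are cut at 0 for Slc30a3). Slc30a2 is the gene whose 4 cisplatin libraries (13.9 to 22.8 CPM) lie above all other libraries of both other groups.

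Cisplatin plus STB against cisplatin is the contrast that bears on STB. It shares the cisplatin libraries with the comparison above and is not independent of it, and the values of Slc30a2 are again given without a test. Slc30a2 had 10.8, 6.66 and 12.35 CPM in the cisplatin plus STB libraries, against 13.9, 22.8, 17.9 and 21.35 CPM in the cisplatin libraries. The groups did not overlap, and the gap between cisplatin plus STB replicate 3 and cisplatin replicate 1 was the narrowest. The means were 9.93 ± 2.94 CPM after cisplatin plus STB (SD, n = 3) and 18.99 ± 3.99 CPM after cisplatin (SD, n = 4), and the log2 fold change was -0.94 (SE 0.24). It ran from -1.12 to -0.71 with any 1 library left out. Extl1 on the opposite strand had 139, 80.4 and 102 CPM after cisplatin plus STB, against 102 to 165 CPM after cisplatin, and stood at -0.25 (SE 0.21, edgeR adjusted p = 0.771). The ratio was 7.78 to 12.1 Slc30a2 counts per 100 Extl1 counts after cisplatin plus STB and 10.2 to 20.2 after cisplatin, and these ranges overlapped.

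Slc30a1 had 100.8, 74.35 and 102 CPM in the cisplatin plus STB libraries, against 105, 106, 120 and 170 CPM in the cisplatin libraries. The groups did not overlap, though cisplatin plus STB replicate 3 and cisplatin replicate 1 were close. A log2 fold change of -0.44 (SE 0.18) did not pass (edgeR adjusted p = 0.517), and it was -0.27 without cisplatin replicate 4. Libraries of the combined group all lay below the cisplatin ones for 3.73% of all genes, and for Slc30a1 alone among the 7 tested members other than Slc30a2.

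Slc30a7 had 26.5, 24.8 and 36.8 CPM in cisplatin plus STB libraries, against 36.0, 39.1, 37.5 and 47.2 CPM in cisplatin libraries. Replicate 3 of the combined group reached into the cisplatin range. Its value was -0.44 on the log2 scale (SE 0.17, edgeR adjusted p = 0.458). Slc30a5 had 70.1, 72.2 and 99.9 CPM after cisplatin plus STB, against 92.6, 99.4, 97.6 and 123 CPM after cisplatin, and once more replicate 3 was the combined library inside the cisplatin range. On the log2 scale this was -0.35 (SE 0.17, edgeR adjusted p = 0.571), and -0.54 without that replicate.

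Slc30a6 had 30.8, 29.75 and 38.2 CPM in the cisplatin plus STB libraries, against 35.1, 28.65, 32.3 and 35.6 CPM in the cisplatin libraries, a log2 fold change of 0.00 (SE 0.13, 95% interval -0.28 to 0.28, edgeR adjusted p = 0.999). Slc30a9 had 77.5, 64.5 and 77.9 CPM after the combined treatment, against 70.4, 60.3, 80.3 and 93.8 CPM after cisplatin (log2 fold change -0.06, SE 0.16, edgeR adjusted p = 0.943). The groups overlapped for both genes. The sign for Slc30a9 turned without cisplatin replicate 4 (0.05). Slc30a4 had 21.1, 17.9 and 19.1 CPM after the combined treatment, against 20.2, 29.9, 17.3 and 17.6 CPM after cisplatin, and its fitted -0.14 (log2, SE 0.20, edgeR adjusted p = 0.881) became 0.06 without cisplatin replicate 2.

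Slc30a10 was counted 26, 38 and 33 times in cisplatin plus STB libraries, against 28, 9, 32 and 11 times in cisplatin libraries (log2 fold change 0.62, SE 0.48, edgeR adjusted p = 0.754). The combined libraries lay near the higher pair of cisplatin libraries, and the value was 0.38 without cisplatin replicate 2, 0.41 without cisplatin replicate 4 and 0.35 by limma-voom. Slc30a3 was counted 2, 5 and 0 times after the combined treatment, where the count of 0 allows up to 0.179 CPM, against 0, 2, 3 and 4 times after cisplatin. Of the 7 tested members other than Slc30a2, 0 passed, while 0.0195% of all genes did (3 genes, against 100 by DESeq2 and 235 by limma-voom). At an unadjusted p under 0.05 there were 2 of these 7 (Slc30a1 and Slc30a7), against 9.03% of all genes. The median log2 fold change of the 7 was -0.14, with 5 below 0 and 2 above, and 50.8% of all genes were above 0.

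The combined treatment against no treatment shares libraries with both comparisons above. Slc30a2 had 10.8, 6.66 and 12.35 CPM in the cisplatin plus STB libraries, against 10.3, 7.81, 10.1 and 8.58 CPM in the untreated libraries. The groups overlapped, and combined replicates 2 and 3 marked both ends of the values. The log2 fold change was 0.11 (SE 0.24). The untreated libraries are among those whose Slc30a2 values chose the family, so this too is a description with no test. The other 7 tested members had log2 fold changes between -0.12 for Slc30a1 and Slc30a5 and 0.02 for Slc30a10, all at an edgeR adjusted p of 1. Of these 7, 2 had a log2 fold change above 0, against 49.1% of all genes, and 0 passed, as did 0% of all genes by edgeR, DESeq2 and limma-voom. At an unadjusted p under 0.05 there were 0 of the 7, against 1.07% of all genes (165).

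**Figure D4:**
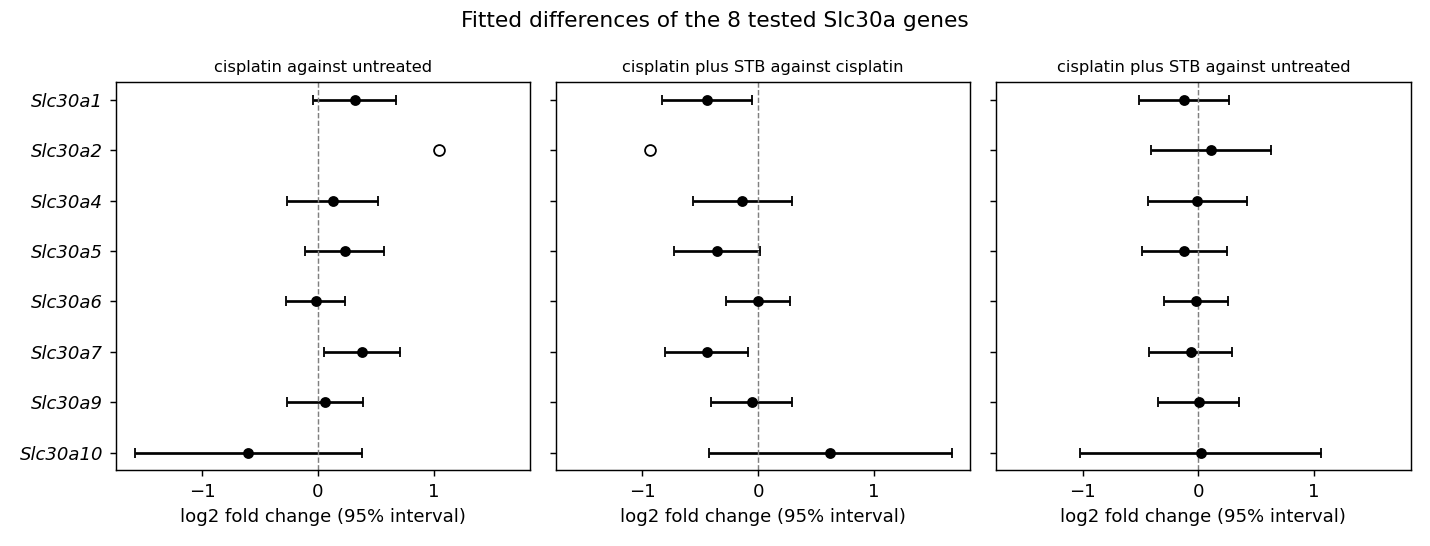
Fitted log2 fold changes of the 8 tested Slc30a genes in each comparison, with 95% intervals from the edgeR fit. Open circles mark Slc30a2 where its values drew attention or share the cisplatin libraries, and are drawn without an interval. In the third panel its interval is a description only, since the untreated libraries helped to choose the family. Slc30a2 lies farthest from 0 in the first (1.04) and second (-0.94) panels, and all 8 genes lie between -0.12 and 0.11 in the third.

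A member's share of the summed FPKM of all 9 genes does not depend on how libraries are scaled. Slc30a2 took 2.87% to 4.14% of the family sum after cisplatin plus STB, 4.79% to 7.55% after cisplatin and 2.72% to 3.92% without treatment. These shares are built from the values that chose the family, so they too are a description. The summed FPKM of the 9 genes was 69.8 ± 6.74 after the combined treatment (SD, n = 3), 79.1 ± 8.97 after cisplatin (n = 4) and 71.5 ± 3.66 without treatment (n = 4), and these ranges overlapped. Unlike the shares, these sums depend on library scaling, and FPKM carries no TMM factor. Slc30a9 took 31.1% to 33.4% after the combined treatment, 23.7% to 30.8% after cisplatin and 29.15% to 35.8% without treatment, so its share in the combined libraries lay above the cisplatin ones and overlapped the untreated ones. The family sum holds the Slc30a2 values, so this share is a description too. Slc30a9 itself averaged 73.3 ± 7.64 CPM after the combined treatment and 76.2 ± 14.3 CPM after cisplatin (SD, n = 3 and n = 4).

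In some libraries of the treated groups, members were often high or low together. Cisplatin plus STB replicate 2 held the lowest value of its group for 6 of the 8 tested members, against 36% of all genes, and replicate 3 the highest for 6 of 8, against 38.2% of all genes. Cisplatin replicate 4 was the highest of its group for Slc30a1, Slc30a5, Slc30a6, Slc30a7 and Slc30a9, 5 of 8 members, against 26.8% of all genes. Slc30a2 and Slc30a4, which load secretory vesicles, were instead highest in cisplatin replicate 2, the highest of its group for 31.7% of all genes. In the untreated group replicates 2 and 4 were each highest for 3 of 8 members, against 23.8% and 30% of all genes. Untreated replicate 1 was lowest for 4 of 8, against 29.2% of all genes. The spread between replicates of a group, as the biological coefficient of variation of the fit, ran from 0.147 for Slc30a6 to 0.424 for Slc30a10, with 0.244 for Slc30a2 and a median of 0.209 over all genes.

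The genes whose libraries followed Slc30a2 most closely were found by the mean absolute distance of centred log2 CPM over the 11 libraries, among 6865 genes with a symbol of their own and a log2 range of at least that of Slc30a2 divided by 2. They were Rhou (distance 0.17), Adam9, a membrane metalloprotease that binds zinc (0.18), Dusp1, a MAP kinase phosphatase (0.20), Amotl2, an angiomotin relative of cell junctions (0.20), and Cnga1, a cyclic nucleotide gated channel subunit (0.205). The median distance of these candidates was 0.61. Rhou averaged 56.5 ± 19.4 CPM after cisplatin plus STB, 99.2 ± 36.1 CPM after cisplatin and 53.3 ± 9.54 CPM without treatment (SD, n = 3, 4 and 4). Dusp1 averaged 35.5 ± 6.59, 62.0 ± 16.6 and 34.8 ± 7.87 CPM in these groups, so both were highest on average after cisplatin, as the choice by likeness fixes. Within the family Slc30a1 and Slc30a7 were nearest at 0.31 each, and Slc30a10 was farthest at 0.79. Closeness to Slc30a2 describes these libraries and carries no test.

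Other zinc genes were read from lists, beginning with the proteins that bind zinc. The table annotates 6 metallothionein genes by description, of which 4 were tested, a list chosen after the files were read because most carry only LOC symbols. In cisplatin replicate 2 metallothionein-1D (LOC100727228) reached 79.0 CPM, metallothionein-2 (LOC100727780) 78.25 CPM and metallothionein-2-like (LOC106024976) 25.7 CPM. The other cisplatin libraries had 14.1 to 19.3, 17.7 to 20.4 and 1.69 to 2.81 CPM of these genes, against 8.58 to 17.2, 10.2 to 20.1 and 1.56 to 3.25 CPM in untreated libraries. So a single library set their cisplatin means. For cisplatin against untreated the log2 fold change of metallothionein-1D was 1.30 (SE 0.52, edgeR adjusted p = 0.488), and 0.38 without that library. That of metallothionein-2 was 1.01 (SE 0.48), and 0.17 without it. That of metallothionein-2-like was 1.85 (SE 0.78), and 0.04 without it.

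In the combined group metallothionein-1D was at 7.41 to 11.9 CPM and metallothionein-2 at 8.85 to 13.8 CPM, below all 4 cisplatin libraries. Their log2 fold changes against cisplatin were -1.69 (SE 0.58, edgeR adjusted p = 0.441) and -1.52 (SE 0.54, edgeR adjusted p = 0.447), or -0.77 and -0.69 without cisplatin replicate 2. Metallothionein-2-like, at 1.68 to 2.23 CPM in the combined group, overlapped the cisplatin range of 1.69 to 25.7 CPM. On the log2 scale it stood at -2.05 (SE 0.875, edgeR adjusted p = 0.531), and near 0 at -0.25 without cisplatin replicate 2. For 3.73% of all genes the combined libraries all lay below the cisplatin ones. Metallothioneins are a multigene family, and their sequences were not compared here, so how reads were split among copies is uncertain. Metallothionein-3 (LOC100716374), a neuronal form, had values of the other sign, 0.36 against cisplatin (SE 0.51) and -0.41 for cisplatin against untreated (SE 0.47). Mtf1, the zinc sensor, was at 30.5 ± 5.25, 32.7 ± 4.01 and 30.6 ± 2.56 CPM after cisplatin plus STB, after cisplatin and without treatment (SD, n = 3, 4 and 4).

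Of 14 ZIP importer genes, all present among the deposited rows, 13 were tested. In each of the 3 comparisons 0 passed in either direction, and their median log2 fold change was -0.08 for cisplatin against untreated and 0.00 for the combined treatment against cisplatin. Slc39a3, a plasma membrane importer, was at 22.3 ± 2.94 CPM after cisplatin and 28.5 ± 1.22 CPM without treatment, with no overlap (log2 fold change -0.35, SE 0.13, edgeR adjusted p = 0.462). The share of all genes whose cisplatin libraries all lay below the untreated ones was not computed. Slc39a7, which releases zinc from the endoplasmic reticulum, was at 139.9 ± 13.9 CPM after the combined treatment and 172 ± 13.4 CPM after cisplatin, with no overlap (log2 fold change -0.30, SE 0.12, edgeR adjusted p = 0.505). For Slc39a8, an importer of zinc and manganese, the log2 fold change for cisplatin against untreated was 0.48 (SE 0.30, edgeR adjusted p = 0.613). Slc39a2 was at 76.8 ± 10.1 CPM after cisplatin and 94.25 ± 10.9 CPM without treatment, with overlap (-0.29 on the log2 scale, SE 0.16, edgeR adjusted p = 0.568). With cisplatin plus STB set against cisplatin, Slc39a3 stood at 0.30 (SE 0.14) and Slc39a14 at -0.39 (SE 0.25). Slc39a1, at the plasma membrane, was at 107 ± 4.92 CPM after the combined treatment and 131 ± 26.7 CPM after cisplatin, with no overlap (log2 fold change -0.30, SE 0.15, edgeR adjusted p = 0.587). Beside Slc39a7 and Slc39a1, the combined libraries all lay below the cisplatin ones for 3.73% of all genes.

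Among 7 tested enzymes that bind zinc, most of them loaded in the secretory route, 0 passed in any comparison. Adam9 was at 79.8 ± 18.6 CPM after cisplatin and 50.0 ± 3.17 CPM without treatment. Its cisplatin libraries all lay above the untreated ones, as for 2.8% of all genes. Adam9 is also among the 5 genes nearest to Slc30a2 above, so its values are not separate from those of Slc30a2. On the log2 scale it stood at 0.67 (SE 0.19, edgeR adjusted p = 0.440), and -0.68 (SE 0.21, edgeR adjusted p = 0.397) for the combined treatment, at 49.75 ± 14.5 CPM, against cisplatin. Alpl, the tissue-nonspecific alkaline phosphatase that depends on Slc30a5, Slc30a6 and Slc30a7 in vertebrate cells, stood at -0.27 (SE 0.30) for the combined treatment against cisplatin and at 0.03 (SE 0.28) for cisplatin against untreated, on the log2 scale. Enpp1, which makes pyrophosphate outside the cell, stood at -0.29 (SE 0.17) for cisplatin against untreated. In that comparison Mppe1 stood at -0.10 (SE 0.12) and Nt5e, the ectonucleotidase CD73, at 0.21 (SE 0.25). Nt5e stood at -0.41 (SE 0.28) and Ca9, a carbonic anhydrase, at 0.28 (SE 0.22) for the combined treatment against cisplatin.

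Of 7 other tested carriers of zinc, manganese or iron, 0 passed. Tmem165, a Golgi manganese carrier, was at 79.3 ± 5.47 CPM after cisplatin and 64.4 ± 2.41 CPM without treatment, with no overlap (log2 fold change 0.30, SE 0.12, edgeR adjusted p = 0.488). The cisplatin libraries all lay above the untreated ones for 2.8% of all genes. The other 6 had log2 fold changes between -0.79 (Tmem163, SE 1.45) and 0.09 (Atp2c1, SE 0.20) for cisplatin against untreated. Of the regulators reported for Slc30a2 in mouse pancreatic acinar cells 3 were tested. Nr3c1, the glucocorticoid receptor, stood at -0.04 (SE 0.18) for cisplatin against untreated and at -0.06 (SE 0.19) for cisplatin plus STB against cisplatin, on the log2 scale. Stat5b was at -0.15 (SE 0.11) and -0.05 (SE 0.12) in the same comparisons, and Mtf1 at 0.10 (SE 0.14) and -0.10 (SE 0.15). None of these passed.

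**Figure D5:**
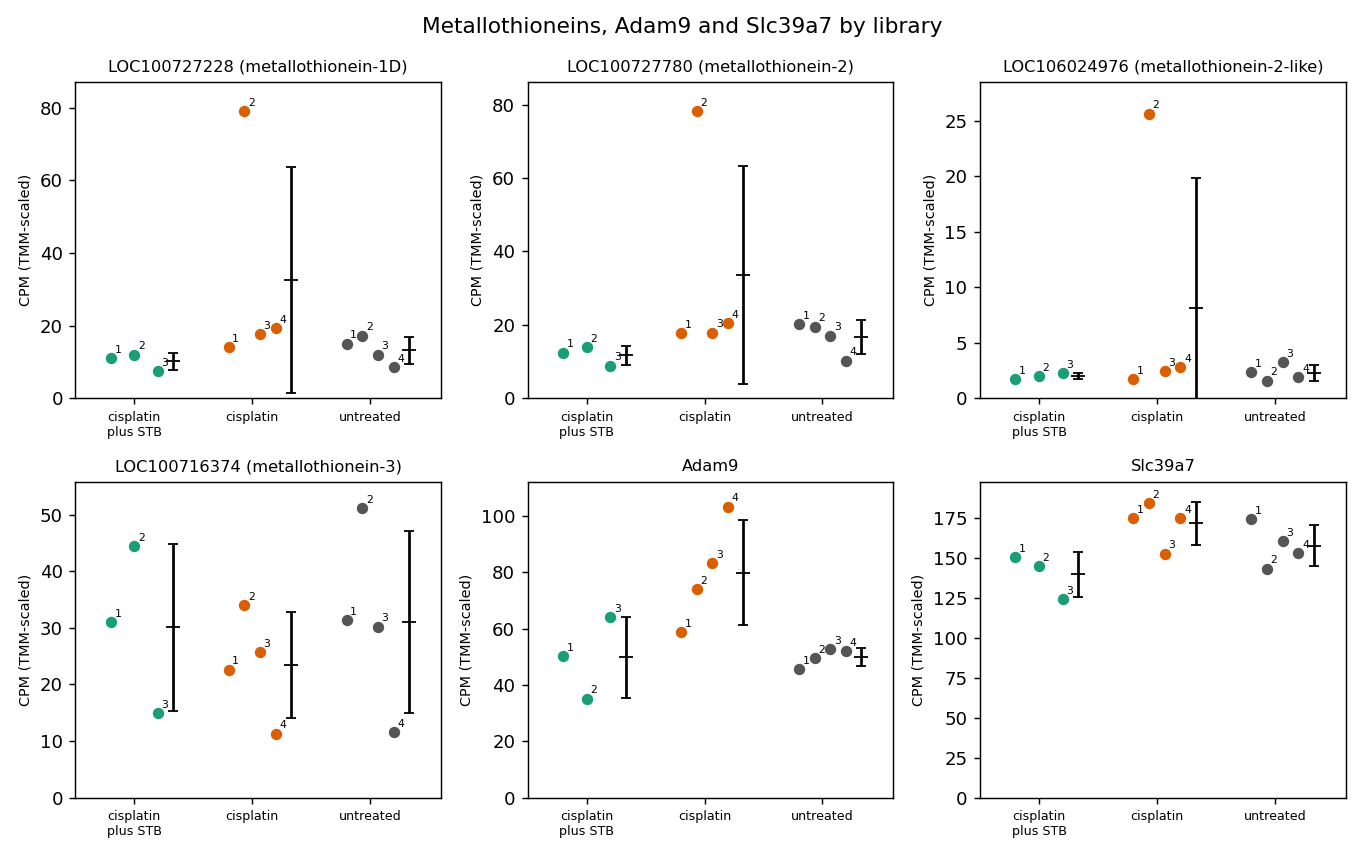
TMM-scaled CPM of 4 metallothionein genes, Adam9 and Slc39a7 by library, 1 numbered point per replicate, with mean ± SD bars (n = 3 after cisplatin plus STB, n = 4 in the other groups; the bar of metallothionein-2-like is cut at 0). Cisplatin replicate 2 stands alone at 79.0, 78.25 and 25.7 CPM for the first 3 metallothioneins, whereas all 4 cisplatin libraries of Adam9 (58.75 to 103 CPM) lie above the untreated ones (45.65 to 52.7 CPM).

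No marker of any cell type list passed in any comparison. The summed levels of some lists did not overlap between groups, but these sums were not tested, and how often other sums do so was not computed. The summed CPM of the bone and cartilage list was 377 to 463 after cisplatin and 464 to 634 without treatment, with 6 of its 7 tested members below 0. The nearest libraries almost met, with 463.1 CPM in cisplatin replicate 1 and 463.9 CPM in untreated replicate 3. The summed CPM of the spiral ligament list was 32120 to 41130 after cisplatin plus STB and 42190 to 55380 after cisplatin. Coch made up most of that sum, at 32330 ± 4760 CPM after cisplatin plus STB and 45240 ± 6800 CPM after cisplatin (SD, n = 3 and n = 4), while 4 of the 6 tested members, Otos and Otor among them, had log2 fold changes above 0.

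Neuron markers summed to 447.7 to 2942 CPM after cisplatin plus STB, 253 to 1891 CPM after cisplatin and 464 to 3464 CPM without treatment. A single untreated library, replicate 2, held the 3464 CPM, and the others held 464 to 720.4 CPM. Likewise cisplatin plus STB replicate 2 held the 2942 CPM, and the others 447.7 and 973.2 CPM. Cisplatin replicate 3 held the 1891 CPM, and the others 253 to 417.5 CPM. All 9 neuron markers were above 0 for cisplatin plus STB against cisplatin, with a median log2 fold change of 0.94 and SEs of 0.61 to 1.61. All 9 were below 0 for cisplatin against untreated, with a median of -0.86 and SEs of 0.59 to 1.51. Above 0 in these comparisons were 50.8% and 49.1% of all genes. The sums of the hair cell, strial, Schwann cell, supporting cell and macrophage lists overlapped between groups in each comparison. The macrophage sum was highest, at 146 CPM, in cisplatin replicate 2, the library with the highest Slc30a2 and Slc30a4 values and the highest values of the first 3 metallothioneins above. In that library the hair cell sum was also the highest of the cisplatin group, at 2652 CPM. Its supporting cell and strial marginal cell sums were the lowest of the group, at 2120 and 281.9 CPM. Cisplatin replicate 2 held the group's highest value for 31.7% of all genes. Cisplatin replicate 4, with 21.35 CPM of Slc30a2, had the lowest macrophage sum of the group, at 51.2 CPM.

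Among the macrophage markers Cd163, a scavenger receptor for haemoglobin complexes, is named after its values were seen. It was at 1.65 ± 0.343 CPM after cisplatin plus STB, 8.62 ± 3.76 CPM after cisplatin and 3.04 ± 0.732 CPM without treatment (SD, n = 3, 4 and 4), and no 2 groups overlapped. Its log2 fold change was -2.38 for cisplatin plus STB against cisplatin (SE 0.39, edgeR adjusted p = 0.156) and 1.5 for cisplatin against untreated (SE 0.34, edgeR adjusted p = 0.440). Libraries did not overlap for 3.73% of all genes (lower) and 2.8% (higher) in these comparisons. Of the 7 tested macrophage markers, 5 were below 0 and 2 above in the first, and 6 above and 1 below in the second. Aif1 had the other sign in both, at 0.16 (SE 0.36) and -0.295 (SE 0.33). For cisplatin plus STB against untreated, Cd163 stood at -0.88 on the log2 scale (SE 0.38) and did not pass. The share of all genes without overlap was not computed there. The part of these markers in the values of the Slc30a genes was not tested.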

How the data were processed

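RNA-seq was made from 11 guinea pig cochlea libraries. Per the labels' protocols, mRNA was selected on oligo(dT) or ribosomal RNA was depleted, and libraries kept the strand. Per the submitters' processing notes, cutadapt 1.9.1, HISAT2 2.2.1 and HTSeq 0.6.1 were used, with no role stated, and these sources name no build. The deposited raw counts per gene, which the authors did not normalize, entered the tests. The authors' FPKM values, per the file headers, follow from these counts and exonic length. All 9 members matched RefSeq symbols with the same start and end.

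The count model was edgeR 4.0.16 (R 4.3.3): filterByExpr (minimum count 10) left 15384 genes, with TMM scaling and 1 robust quasi-likelihood fit of 3 groups. SEs and 95% intervals come from that fit, and log2 CPM for distances used a prior count of 2. The fit was tested on simulated data. Alternatives were DESeq2 1.42.0, limma 3.58.1, other scalings, no filter, 2 groups only, a replicate block and leaving out each library. Samples were grouped by title. Named were all members, overlapping or nearest genes, up to 4 genes per zinc list and comparison from those with the smallest p (not all of these 4 are given, and Alpl, Tmem163 and Atp2c1 are also given outside them), and the 5 genes nearest to Slc30a2. Members and lists were chosen with earlier results of these data known. Limits from a count of 0 cover counting error only. Slc30a8 was not analysed here.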

Additional observations from a re-analysis of the deposited data

Results flagged for a closer look

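Slc30a6 in untreated replicate 2, at 33.98 CPM, was set apart from the other untreated libraries, which lay between 33.12 and 33.23 CPM, by a gap of 0.872 of the group's whole range. The whole range of this group was under 1 CPM, so the gap is small in size. Of 16 groups of 4 libraries checked this was the 1 with such a gap, and chance sets apart about 1 in 20 groups.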

How the results depend on the processing

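Log2 fold changes were recomputed for the 7 tested members other than Slc30a2. Under other settings 142 kept their direction and side of the threshold and 5 turned sign. With 1 library left out 214 kept both and 17 turned sign. Signs were compared after rounding, so a value rounded to 0 counted as kept. This held for Slc30a6 for the combined treatment against cisplatin (0.002, from -0.12 to 0.07 with 1 library left out). It also held for Slc30a9 against untreated (0.004, from -0.06 to 0.10). Under limma-voom with quality weights Slc30a4 was at -0.03 for cisplatin against untreated, 0.10 for the combined treatment against cisplatin and 0.07 against untreated. Numbers of genes called were 0, 3 and 0 in these comparisons. For cisplatin against untreated they were 33 by DESeq2, 1 with no low-count filter and 3 by limma-voom. For the combined treatment against cisplatin they were 100 by DESeq2, 235 by limma-voom and 0 with only the groups compared. DESeq2 called 1 member in each of these comparisons and limma-voom 1 in the second, Slc30a2 each time; since its values chose the family this is no support. The cause was not tested. With 1 library left out, calls ran from 0 to 7, 0 to 23 and 0 to 2, members called stayed at 0, and only results near 0 turned. For cisplatin against untreated Slc30a4 ran from -0.08 to 0.22, Slc30a6 from -0.06 to 0.05 and Slc30a9 from -0.05 to 0.16. For the combined treatment against cisplatin Slc30a4 ran from -0.24 to 0.06 and Slc30a9 from -0.17 to 0.05. Against untreated Slc30a1 ran from -0.20 to 0.01, Slc30a2 from -0.08 to 0.33, Slc30a4 from -0.07 to 0.06, Slc30a6 from -0.14 to 0.05, Slc30a7 from -0.26 to 0.04 and Slc30a10 from -0.15 to 0.26.

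With a replicate block the combined treatment against cisplatin gave 0 calls, Slc30a9 there stood at 0.02, and Slc30a10 stood at -0.05 against untreated. Libraries that share a number were not taken as pairs: correlations of their deviations ran from -0.31 to 0.36, and 3 of 10 pairs exceeded 0.1. The best correlation was with the library of the same number for 1 of 4 cisplatin libraries against untreated, 1 of 3 combined libraries against cisplatin and 2 of 3 combined libraries against untreated. Metallothionein values without cisplatin replicate 2 were added after the data were seen. At 9 to 44 counts, depth limits Slc30a10, and at 0 to 5 counts Slc30a3.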
